A study of Homo sapiens with 4 samples.

Results

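Ubiquitin is attached to proteins to mark them for degradation, and the 8 genes described here cover successive steps of that route. They were UBB, a polyubiquitin gene; UBA1, an E1 enzyme; VCP and its cofactor NPLOC4; ZFAND2A and ZFAND5, zinc finger adaptors of the proteasome and VCP; and the ubiquilin shuttle factors UBQLN1 and UBQLN2. The members were chosen by gene symbol, and all 8 were found among the 61806 rows of the count table. For comparison, 81 other genes of the pathway were taken from 8 lists, among them RPS27A, which encodes ubiquitin joined to a ribosomal protein.

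Poly(A) RNA was sequenced from a breast cancer line, MDA-MB-231, and a melanoma line, MDA-MB-435, as controls or with CPYPP, an inhibitor of DOCK proteins that the study used to induce paraptosis, a form of cell death with cytoplasmic vacuoles. The genotype was given as WT for every sample, and the treated cells received 10 µM CPYPP for 6 h. There were 4 libraries, 1 per condition, with total counts between 17196385 and 22663954. The protocol texts mention only MDA-MB-435, for all 4 samples, so the line of each library was taken from its title. SOX10, a transcription factor of melanocytes, had 3031 counts in the MDA-MB-435 control, 707 after CPYPP in that line, and 0 and 1 in MDA-MB-231. Of the other melanocyte markers examined, DCT had 658 and 464 counts in MDA-MB-435 cells and 1 and 3 in MDA-MB-231 cells, whereas MITF was similar in the controls, at 1405 and 1585, and TYR, PMEL and MLANA had at most 14 counts in the MDA-MB-435 libraries. The epithelial genes KRT19, EPCAM and CDH1 had between 287 and 3953 counts in MDA-MB-231 cells and at most 4 in MDA-MB-435 cells. KRT8 and KRT18 were present in MDA-MB-435 cells as well, with 522 and 310 counts of KRT8 and 5740 and 4077 of KRT18.

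UBB encodes head-to-tail repeats that are cut into free ubiquitin and is known as a stress-responsive gene, whereas RPS27A supplies ubiquitin together with a subunit of the ribosome. UBA1 activates ubiquitin for the conjugating enzymes, VCP is an ATPase that unfolds ubiquitylated proteins and extracts them from membranes and complexes with the help of NPLOC4, and ubiquilins carry ubiquitylated clients to the proteasome.

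Among the members, ZFAND2A rose 13.1-fold in MDA-MB-231 cells and 33.6-fold in MDA-MB-435 cells after CPYPP, and ZFAND5 rose 2.79-fold in MDA-MB-435 cells. UBB, VCP, NPLOC4 and UBQLN1 were between 1.34-fold and 1.79-fold of their controls in both lines, below the 2-fold threshold. UBA1 was 1.10-fold in each line, and UBQLN2 was below its control in MDA-MB-231 cells and above it in MDA-MB-435 cells. A gene was called when an exact binomial test of its 2 counts gave a Benjamini-Hochberg adjusted p under 0.05 and its fold change exceeded 2. With 1 library per condition there is no replicate check. The test compared the reads of 2 libraries, not the conditions, and every interval below is a 95% interval for counting error only. A change in RNA per cell and a change in the number of cells that carry it cannot be told apart in bulk RNA.

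By this rule, 1 of 8 members rose in MDA-MB-231 cells, where 4.22% of the 16441 genes tested rose and 3.09% fell. In MDA-MB-435 cells, 2 of 8 members rose, where 3.17% of 16527 genes rose and 6.52% fell. No member fell in either line. With the threshold lowered to 1.5-fold, 2 members rose in MDA-MB-231 cells against a background of 8.55%, and 5 members rose in MDA-MB-435 cells against 8.3%. All 8 members are among the 9363 genes with at least 100 counts in every library. Of these 9363 genes, 126 rose in MDA-MB-231 cells and 219 in MDA-MB-435 cells at 2-fold. At 1.5-fold, 591 and 904 of them rose. The median log2 fold change of the 8 members was 0.48 in MDA-MB-231 cells and 0.73 in MDA-MB-435 cells, beside -0.01 and -0.02 over all genes tested.

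**Figure D1:**
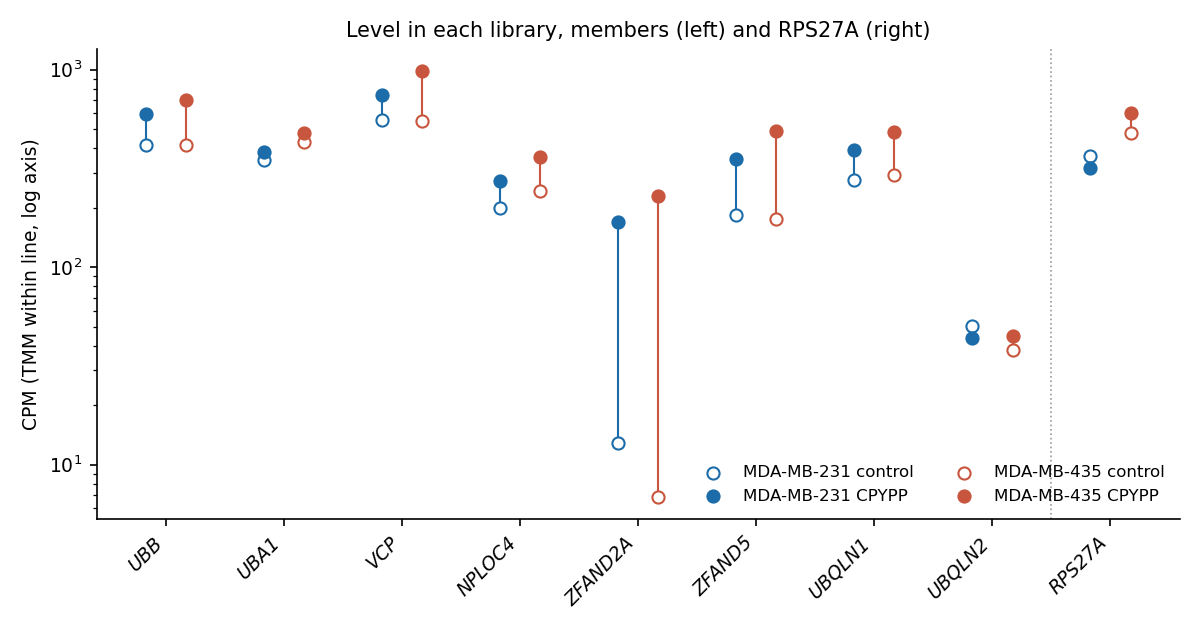
CPM, counts scaled to the library size, of each member, left of the dotted line, and of RPS27A, right of it, in the 4 libraries on a log axis. Open points are controls, filled points are CPYPP libraries, and a line joins the pair of each cell line; the longest lines are those of ZFAND2A, from 12.9 to 169 in MDA-MB-231 cells and from 6.83 to 229 in MDA-MB-435 cells.

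ZFAND2A, also known as AIRAP, encodes a small zinc finger protein that binds the proteasome and is known to be induced by arsenite and by heat shock factor. Its counts were 296 in the MDA-MB-231 control and 2840 after CPYPP, and 163 in the MDA-MB-435 control and 4242 after CPYPP. Both treated libraries lay far above both controls. The gene was 13.1-fold higher after CPYPP in MDA-MB-231 cells (11.6 to 14.8) and 33.6-fold higher in MDA-MB-435 cells (28.7 to 39.5). Ordered by log2 fold change, it held rank 13 of 16441 genes in MDA-MB-231 cells and rank 7 of 16527 in MDA-MB-435 cells. The fold in MDA-MB-435 cells was 2.56 times that in MDA-MB-231 cells (2.10 to 3.12), while the untreated level in MDA-MB-435 cells was 0.514 of that in MDA-MB-231 cells (0.422 to 0.624). The CPM values were scaled within each line and are thus not on a common scale. They went from 12.9 to 169 in MDA-MB-231 cells and from 6.83 to 229 in MDA-MB-435 cells. The line with the lower value before CPYPP thus had the higher value after it. ZFAND2A-DT, an antisense transcript that overlaps the start of ZFAND2A, had 68 and 27 counts in MDA-MB-231 cells and 75 and 69 in MDA-MB-435 cells.

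The sequence upstream of ZFAND2A is printed because this member moved most, that of ZFAND5 because it was called in MDA-MB-435 cells, and that of UBQLN2 because it was called in neither line. They come from the RefSeq promoter table, build GRCh38.p14, where all 8 members had an entry. The windows are chr7:1160197-1160446 on the minus strand for ZFAND2A, chr9:72365236-72365458 on the minus strand for ZFAND5, where 27 bases that an annotated untranslated region covers were left out, and chrX:56563377-56563626 on the plus strand for UBQLN2. Each ends next to an annotated start or, for ZFAND5, at the untranslated region. In GENCODE release 29 the ZFAND2A window lies upstream of the coding transcripts, within an exon of a noncoding ZFAND2A transcript, and overlaps the antisense ZFAND2A-DT. Capitals mark matches, on either strand, to a pair of heat shock element units (TTCNNGAA or GAANNTTC) and to the core of the antioxidant response element (TGACNNNGC).
ZFAND2A: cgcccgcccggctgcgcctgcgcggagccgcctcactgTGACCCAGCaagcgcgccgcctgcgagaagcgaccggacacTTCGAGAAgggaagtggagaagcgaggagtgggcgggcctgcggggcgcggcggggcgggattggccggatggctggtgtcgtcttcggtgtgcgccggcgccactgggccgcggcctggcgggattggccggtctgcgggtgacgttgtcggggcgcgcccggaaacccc
ZFAND5: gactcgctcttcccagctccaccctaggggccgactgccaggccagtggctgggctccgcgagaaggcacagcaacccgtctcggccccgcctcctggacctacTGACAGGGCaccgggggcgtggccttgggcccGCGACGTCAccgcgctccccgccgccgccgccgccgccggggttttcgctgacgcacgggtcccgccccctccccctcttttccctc
UBQLN2: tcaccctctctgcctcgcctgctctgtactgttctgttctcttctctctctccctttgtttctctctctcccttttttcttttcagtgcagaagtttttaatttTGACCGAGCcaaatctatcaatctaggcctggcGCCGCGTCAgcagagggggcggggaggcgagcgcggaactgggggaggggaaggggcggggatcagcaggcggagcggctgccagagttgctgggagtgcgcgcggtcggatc

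The 250 bases upstream of ZFAND2A held TTCGAGAA, which begins 171 bases before the annotated start, and TGACCCAGC, which begins 212 bases before it. Of the 8 members' windows nearest to the start of the gene, 1 held a heat shock element pair, that of ZFAND2A, and 5 held the antioxidant response element core. Among all 35116 promoter windows of 250 bases, 11.58% held a heat shock element pair in either order and 10.91% the antioxidant response element core. The 5 with the core were ZFAND2A and ZFAND5, which were called, and VCP, UBQLN1 and UBQLN2, which were called in neither line. UBQLN2 held 2 matches to the core, as did ZFAND5. No core lay in the nearest windows of UBB, UBA1 and NPLOC4, which were also called in neither line. UBB has a second window, 543 bases from the gene start, that overlaps its nearest one. This second window held 1 core, TGACGCGGC, which begins 30 bases before the annotated start of that window. The nearest windows of UBB, ZFAND2A and NPLOC4 lay 492, 563 and 71032 bases away from the gene start given in the count table. These matches describe letters in a window, and binding of a factor was not measured.

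ZFAND5 encodes a related zinc finger protein that is known to stimulate the proteasome. Its counts were 4217 and 5947 in the MDA-MB-231 control and CPYPP libraries and 4181 and 9052 in those of MDA-MB-435. The untreated level in MDA-MB-435 cells was 0.925 of that in MDA-MB-231 cells (0.886 to 0.966), and both treated libraries were higher. The gene was 1.93-fold higher in MDA-MB-231 cells (1.85 to 2.003), just below the threshold, and 2.79-fold higher in MDA-MB-435 cells (2.69 to 2.90), where it was called. The fold in MDA-MB-435 cells was 1.45 times that in MDA-MB-231 cells (1.37 to 1.53). The fixed list of the ZFAND family holds 5 more genes, and none of them was called in either line. ZFAND3 was 1.34-fold higher in MDA-MB-231 cells and 1.43-fold higher in MDA-MB-435 cells, and ZFAND6 was 1.11-fold and 1.46-fold higher. ZFAND1 was 0.963-fold and 1.25-fold, and ZFAND2B, the close relative of ZFAND2A, was 0.833-fold (0.672 to 1.03) and 1.23-fold (1.07 to 1.41). ZFAND4 had 203 and 204 counts in MDA-MB-231 cells, where the treated library is shallower, and was 1.37-fold (1.12 to 1.67). It had 0 counts in both MDA-MB-435 libraries, where a count of 0 allows up to 3.

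**Figure D2:**
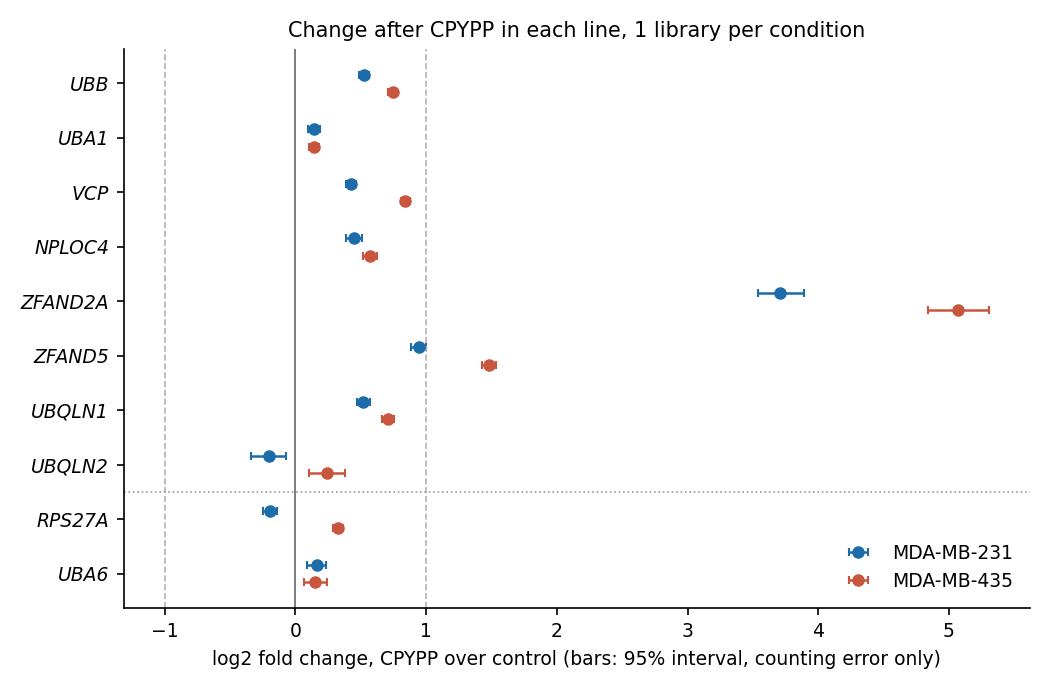
log2 fold change after CPYPP of the 8 members, above the dotted line, and of RPS27A and UBA6 in each line, with 95% intervals for counting error. Dashed lines mark 2-fold; ZFAND2A lies beyond them in both lines and ZFAND5 only in MDA-MB-435 cells, where the difference between the lines has no replicate check.

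UBB had 9478 counts in the MDA-MB-231 control and 10001 after CPYPP, and 9942 in the MDA-MB-435 control and 12905 after CPYPP. Relative to library size, both treated libraries were above both controls, at 596 and 697 CPM against 414 and 417. The ratio to the control was 1.44 in MDA-MB-231 cells (1.40 to 1.48) and 1.67 in MDA-MB-435 cells (1.63 to 1.72), and UBB was called in neither line. The share of reads assigned to UBB was 0.0424% in the MDA-MB-231 control (exact binomial interval 0.0415% to 0.0433%) and 0.0582% after CPYPP (0.0570% to 0.0593%). In the MDA-MB-435 pair it took 0.0439% (0.0430% to 0.0447%) and 0.0662% (0.0651% to 0.0674%). By the longest reading frame of its principal transcript, UBB encodes 3 ubiquitin units and RPS27A 1. These are values of mRNA, and free ubiquitin was not measured.

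RPS27A, which carries ribosomal protein S27a, had 8332 and 5335 counts in MDA-MB-231 cells and 11432 and 11094 in MDA-MB-435 cells. The ratio to control was 0.874 (0.844 to 0.905) in MDA-MB-231 cells and 1.25 (1.22 to 1.28) in MDA-MB-435 cells, on opposite sides of no change. It was called in neither line. Its ratio lay below that of UBB in each line, with intervals that did not overlap. The ubiquitin coding sequence is nearly identical between genes and several processed copies exist, and how reads that match more than 1 place were counted is not given in the sources used here. The table holds 5 rows named as copies of UBB with 3 to 7 counts per library in all, and 19 named as copies of RPS27A with 172 to 316 counts.

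UBA1, the main E1 enzyme, had 7978 and 6445 counts in MDA-MB-231 cells and 10314 and 8827 in MDA-MB-435 cells. These correspond to 348 and 384 CPM in MDA-MB-231 cells and 432 and 477 in MDA-MB-435 cells. The fold change was 1.10 (1.07 to 1.14) in each line, though in MDA-MB-435 cells its log2 fold change was -0.0069 when libraries were scaled by total counts. The ratio of the folds was 1.00 (0.958 to 1.04). UBA6, the alternative E1 enzyme, was 1.12-fold (1.06 to 1.18) and 1.11-fold (1.05 to 1.18). Of the E2 conjugating enzymes, 30 were tested in MDA-MB-231 cells and none was called, and of 29 tested in MDA-MB-435 cells only UBE2O rose, an enzyme known to act on excess ribosomal proteins and other orphan subunits. UBE2O had 981 and 1330 counts in MDA-MB-231 cells (1.85-fold, 1.70 to 2.01) and 1352 and 2261 in MDA-MB-435 cells (2.16-fold, 2.02 to 2.31). The median log2 fold change of the E2 enzymes was 0.09 and 0.18.

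VCP had 12675 and 12477 counts in MDA-MB-231 cells and 13152 and 18286 in MDA-MB-435 cells. The untreated level in MDA-MB-435 cells was 0.968 of that in MDA-MB-231 cells (0.945 to 0.992). After CPYPP the level went from 553 to 743 CPM in MDA-MB-231 cells and from 551 to 988 in MDA-MB-435 cells. The ratio to the control was 1.34 (1.31 to 1.38) in MDA-MB-231 cells and 1.79 (1.75 to 1.83) in MDA-MB-435 cells, with a ratio of 1.33 (1.29 to 1.38). NPLOC4, which with UFD1 forms the adaptor that brings ubiquitylated clients to VCP, had 4586 counts in both MDA-MB-231 libraries, of which the treated one is shallower, and 5812 and 6697 in those of MDA-MB-435. Its ratio to the control was 1.36 (1.31 to 1.42) in MDA-MB-231 cells and 1.49 (1.43 to 1.54) in MDA-MB-435 cells. UFD1 was 1.41-fold (1.30 to 1.53) and 1.78-fold (1.68 to 1.89).

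Neither VCP nor any of its cofactors was called in either line. Of the 27 tested cofactors other than NPLOC4 itself, 22 (81.48%) were above their control in MDA-MB-231 cells and 25 (92.59%) in MDA-MB-435 cells, beside 48.81% and 48.64% of all genes tested and 51.14% and 60.56% of the 9363 genes with at least 100 counts in every library. With libraries scaled by total counts, 20 and 19 of the 27 were above their control, beside 41.66% and 34.54% of all genes tested. With TMM scaling, their median log2 fold change was 0.26 in MDA-MB-231 cells and 0.32 in MDA-MB-435 cells. Among them, UBXN7, an adaptor between VCP and cullin ligases, was 1.75-fold and 1.69-fold. ANKZF1, which acts in ribosome-associated quality control, had a log2 fold change of -0.83 in MDA-MB-231 cells and 0.00 in MDA-MB-435 cells.

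UBQLN1 had 6291 and 6605 counts in MDA-MB-231 cells and 7004 and 8892 in MDA-MB-435 cells. Relative to library size, the treated libraries were higher in both lines, 1.43-fold (1.38 to 1.48) in MDA-MB-231 cells and 1.64-fold (1.59 to 1.69) in MDA-MB-435 cells. UBQLN2, a ubiquilin gene on the X chromosome whose coding mutations are known in familial motor neuron disease, had 1149 and 731 counts in MDA-MB-231 cells and 905 and 829 in MDA-MB-435 cells. The ratio to the control was 0.868 (0.790 to 0.954) in MDA-MB-231 cells and 1.18 (1.07 to 1.30) in MDA-MB-435 cells. UBQLN2 was the member with the lowest fold in MDA-MB-231 cells, and its values in the 4 libraries spanned only 37.9 to 50.2 CPM. In the controls the level of UBQLN2 in MDA-MB-435 cells was 0.735 of that in MDA-MB-231 cells (0.673 to 0.802).

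No other shuttle factor examined was called. RAD23B was 1.11-fold and 1.39-fold, and DDI2, a protease that activates a transcription factor of proteasome genes, was 1.38-fold and 1.22-fold. UBQLN4 was 1.06-fold (0.976 to 1.15) and 0.980-fold (0.913 to 1.05). UBQLNL and DDI1 had at most 3 counts in any library and were not tested. No gene of the BAG6 complex and no ubiquitin-recycling deubiquitinase was called in either line.

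**Figure D3:**
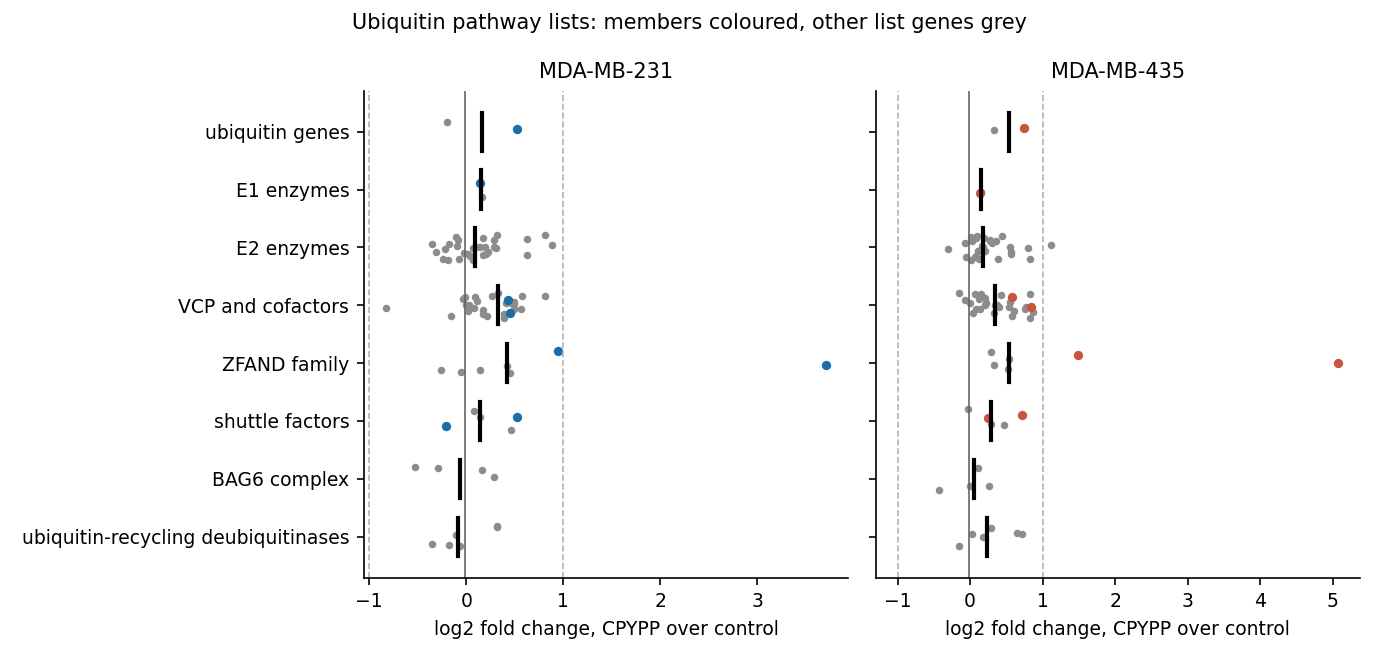
log2 fold change after CPYPP of the tested genes of the 8 pathway lists in each line. Members are coloured, other genes grey, short black bars are list medians, the solid line is the median of all genes tested and dashed lines mark 2-fold; ZFAND2A is the rightmost point in both panels, and the VCP list has medians of 0.32 and 0.35.

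Levels between members were compared per length of exon. With the exon lengths of the count table, the order in the MDA-MB-231 control was UBB with 264 FPKM, VCP with 55.1, UBA1 with 54.1, UBQLN1 with 40.0, ZFAND5 with 26.1, NPLOC4 with 21.0, UBQLN2 with 11.8 and ZFAND2A with 5.66. VCP and UBA1 were nearly level, and without replicates no spread can be set against the differences between neighbours. In the MDA-MB-435 control, UBA1 stood at 67.1 FPKM above VCP at 54.9, and NPLOC4 at 25.5 was level with ZFAND5 at 24.8, while UBB remained highest at 266 and ZFAND2A lowest at 2.99. After CPYPP, ZFAND2A reached 74.1 FPKM in MDA-MB-231 cells and 100 in MDA-MB-435 cells, next to VCP at 74.0 and 98.4. With the length of the principal transcript instead, ZFAND2A reached 197 and 266 FPKM, beside VCP at 170 and 226, so that the size of the gap between them after CPYPP depended on the length used. UBB stayed highest of the members in all 4 libraries with either length.

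Over both lines, a common effect of CPYPP was fitted with edgeR's quasi-likelihood test and the line as a block. This leaves 1 residual degree of freedom per gene, the difference between the lines' responses. The test pools the error of each gene with a trend over all genes, so an SE is not the gene's own difference between the lines. UBA1, with log2 fold changes of 0.1409 and 0.1422 in the 2 lines, had an SE of 0.11. ZFAND2A, at 3.71 and 5.07, had an SE of 0.25. In this fit 6 of 8 members rose at an adjusted p under 0.05 and none fell, beside 4.39% of 16801 genes that rose and 2.85% that fell. Of the 9363 genes with at least 100 counts in every library, which include all 8 members, 677 rose and 336 fell. ZFAND2A had a common log2 fold change of 4.32 ± 0.25 (SE, edgeR adjusted p = 9.55e-06) and ZFAND5 of 1.17 ± 0.13 (edgeR adjusted p = 0.000722). UBB (0.59 ± 0.11), VCP (0.59 ± 0.12), UBQLN1 (0.57 ± 0.11) and NPLOC4 (0.47 ± 0.11) followed, with edgeR adjusted p-values from 0.0109 to 0.0276. UBA1 at 0.10 ± 0.11 and UBQLN2 at -0.02 ± 0.15 did not pass. Of the comparison genes, RPS27A had 0.02 ± 0.13. Of the 81 pathway genes other than members, 77 were tested, 14 rose and 1, UBL4A of the BAG6 complex, fell. VCP cofactors made up 8 of those 14, out of 27 tested.

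**Figure D4:**
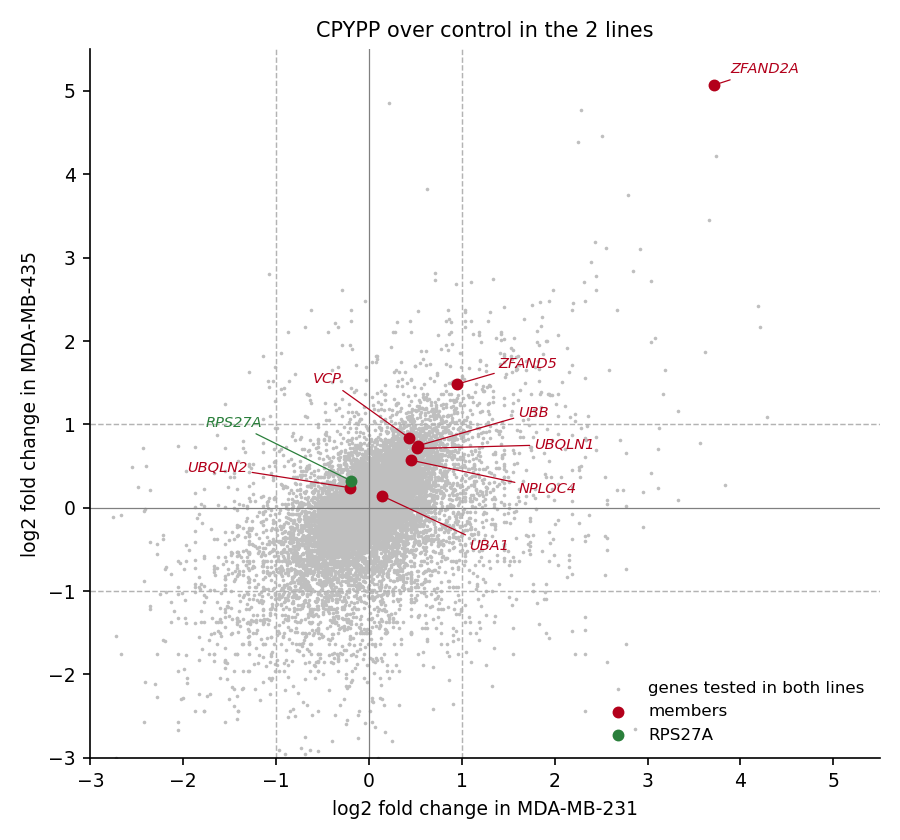
log2 fold change after CPYPP in MDA-MB-231 cells against that in MDA-MB-435 cells for the 14262 genes tested in both lines, in grey, with the members in red and RPS27A in green. Axes end at -3 and 5.5, which leaves out 20 genes; ZFAND2A lies at 3.71 and 5.07, ZFAND5 lies above the grey bulk, and UBQLN2 and RPS27A lie left of 0 on the horizontal axis and above 0 on the vertical axis.

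The genes whose pair of log2 fold changes lay nearest to that of UBB, among the 9304 genes that carry a symbol and have at least 100 counts in every library, were SERP1, BTN2A1, RSL24D1, GBE1 and GTF2B, at distances of 0.01 to 0.03 on the log2 scale. The nearest to ZFAND2A was DNAJB1, an HSP40 co-chaperone, with log2 fold changes of 3.73 in MDA-MB-231 cells and 4.21 in MDA-MB-435 cells at a distance of 0.85. SESN2, ATF3, SLC7A11 and OSGIN1 followed at distances of 1.35 to 1.62. The neighbours of ZFAND2A were thus farther from it than those of UBB from UBB. This follows from its position among the highest folds, where genes are few, and is not a trait of ZFAND2A.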

How the data were processed

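Poly(A) RNA-seq of 4 libraries was analysed, 1 per condition. The authors deposited raw read counts per gene without normalization. The submitters' processing notes name cutadapt 1.9.1, HISAT2 2.2.1, HTSeq 0.6.1 and DESeq2, with no role given, and GRCh37.p13, whereas 58196 of 58254 identifiers shared with GENCODE release 29 (GRCh38) overlap its positions. The strand setting is not given in the sources used here. Columns of annotation were used for lengths and positions.

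Within each line, genes with at least 10 counts in 1 of the 2 libraries were scaled by TMM and tested with the two-sided exact binomial test (scipy 1.17.1) under the Benjamini-Hochberg adjustment. Intervals are 95% Clopper-Pearson intervals, counts under 3 were set to 3 in folds, and CPM and FPKM use the TMM library sizes within each line. Their values in the 2 lines are thus not on a common scale, and the ratios of untreated levels use TMM of the 2 controls. A floor of 3 counts is 0.126 to 0.179 CPM. The common effect was fitted with edgeR 4.0.16 (R 4.3.3) after filterByExpr and gave a biological coefficient of variation of 0.121. The fits were tested on simulated counts.

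The members, pathway lists and thresholds were chosen with earlier results of these data known. All 8 members and the genes of the ubiquitin, E1, ZFAND and shuttle lists are named, except some that are not reported here, and of the other lists genes called in a line. Further genes were named by likeness to UBB and ZFAND2A, the 5 nearest in log2 fold change over both lines. UFD1, UBXN7, ANKZF1 and UBL4A were named after their values were seen, as were the copies of UBB and RPS27A. Alternatives concerned scaling, filters, assumed variation, thresholds, DESeq2 1.42.0 and the block. The binomial p-values measure counting error. Those of the common effect rest on differences between the responses of the lines, pooled over genes, and not on those of each gene alone.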

Additional observations from a re-analysis of the deposited data

Results flagged for a closer look

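In 5 genes of the lists named in full, the change after CPYPP had opposite signs in the 2 lines, which flagged them. None was called in either line, the difference between the lines was not tested, and with 1 library per condition the sign rests on 1 pair of libraries per line. Of the members this concerned UBQLN2, whose log2 fold change was -0.20 in MDA-MB-231 cells and 0.24 in MDA-MB-435 cells, a difference of 0.44. The size of these values depended on the scaling. They were -0.27 and 0.09 with total counts, and -0.25 and 0.13 with upper quartile scaling. RPS27A went from -0.19 to 0.32, a difference of 0.52. Among the ZFAND genes the difference, MDA-MB-435 minus MDA-MB-231, was 0.38 for ZFAND1 and 0.56 for ZFAND2B, which had between 144 and 427 counts per library. For UBQLN4 it was -0.11, and the counting intervals of UBQLN4 include no change in both lines.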

How the results depend on the processing

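ZFAND2A in both lines and ZFAND5 in MDA-MB-435 cells were called under total counts, DESeq2 size factors, upper quartile scaling and every count filter tried. The 1202 calls in MDA-MB-231 cells became 728 with at least 10 counts required in both libraries, 156 and 4 when the biological coefficient of variation was set to 0.2 and 0.4, and 2501 with a threshold of 1.5-fold. The 1602 calls in MDA-MB-435 cells became 991, 271, 14 and 3255. With the coefficient of 0.4, 0 members were called in MDA-MB-231 cells and 1, ZFAND2A, in MDA-MB-435 cells. With 1.5-fold, 2 were called in MDA-MB-231 cells and 5 in MDA-MB-435 cells. UBA1 in MDA-MB-435 cells reversed to -0.0069 with total counts. The share of calls that were higher went from 57.74% to 50.04% in MDA-MB-231 cells and from 32.71% to 19.92% in MDA-MB-435 cells with total counts and to 22.79% there with upper quartile scaling, and in MDA-MB-435 cells every log2 fold change then moved by -0.15 and -0.11.

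The 1215 calls of the common effect became 1930 with total counts, 1896 with at least 1 count in 1 library and 2131 with the DESeq2 Wald test, and the same 6 members rose in each. The SE of ZFAND2A depended on the fit. It was 0.25 in the main fit, 0.16 with at least 1 count in 1 library and 0.63 with the DESeq2 Wald test. Without the block for the line, edgeR called 0 genes and 0 members, with 167 genes at an unadjusted p under 0.05. The block for the line, which pairs the control and CPYPP libraries of each line, is the pairing the design gives. Leaving out a library was not possible, as each group holds 1. For genes with low counts the depth limits the precision, as the wide interval of ZFAND2B shows.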
